A study of Mus musculus with 2 samples.

Results

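The 46 genes described here act in DNA replication and in mitosis: 19 replication genes, 21 mitosis genes, 2 G1 cyclins and 4 abundant genes associated with growth. They were picked by symbol, by a rule that sets no threshold on their values, but with earlier results of these data known. All 46 were found among the 43346 genes listed for each library. The tissue was the liver of newborn mice of strain B6NCrl at postnatal day 0, with no treatment or genetic change named, and 1 library each came from a liver of pup 1 and a liver of pup 3. Per the labels, SmartSeq libraries, in which cDNA is copied and amplified by PCR, were made from 13 pg of total RNA above 200 nt (1 cell-equivalent, here taken from tissue RNA and not from a sorted cell), with spike-in RNAs added. Both livers carry the same donor entry, so how far the libraries stand for separate animals is not given, and their spread can be biological or technical. There was 1 group and no contrast. Every value below is therefore a level or a spread over these libraries (mean ± SD, n = 2), and no test was made.

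The tables held 56959836 expected counts (estimated reads per gene) for pup 1 and 35973980 for pup 3, of which 3.76% and 3.28% were spike-ins. The libraries detected 5742 and 5491 genes, where detection means at least 1 TPM (transcripts per 1000000, a level corrected for transcript length, computed without spike-ins). A count of 0 allows up to 3 counts per library, which is 0.0547 CPM (counts per 1000000) in pup 1 and 0.0862 in pup 3. No molecular identifiers were listed, so such limits, and every lower bound of a fold given below ("at least"), cover counting error only. They do not cover RNA missed before sequencing, and so do not bound the level in the liver. Liver identity was plain in both libraries: all 6 hepatocyte markers were detected in both, at summed levels of 151478 and 123303 TPM. All 6 erythroid markers (55930 and 70416 TPM) and all 7 neutrophil precursor markers (6322 and 9091 TPM) were also detected in both.

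A cell that divides licenses its origins of replication in G1, when the MCM helicase is loaded by factors that include Cdt1, and copies its DNA in S phase, when PCNA clamps the polymerases to DNA and Fen1 and Lig1 process and seal the pieces of the lagging strand. It then enters mitosis under Cdk1 with B-type cyclins, and leaves it when the anaphase-promoting complex with Cdc20 and Ube2c marks the cyclins for destruction. Genes of the S phase programme are classic targets of E2F factors, and many mitotic genes are controlled through a promoter element called CHR, often near CCAAT boxes. The liver at birth is still a blood-forming organ, so dividing cells can be erythroid and myeloid precursors as well as hepatocytes. In tissue RNA, fewer cells of a type and less RNA per cell cannot be told apart.

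Most members were found in both livers, 15 of 19 replication genes and 12 of 21 mitosis genes. Of the 46 members, 33 had counts in both libraries, against 12.7% of all listed genes and 50.5% of the genes counted in either library. At 1 TPM or more, 31 of 46 were detected in both, against 8.2% of all listed genes. Another 6 were detected in pup 1 alone, 6 in pup 3 alone and 3 in neither. Of the 43 members detected in at least 1 library, 72.1% were detected in both, where 46.3% of all such genes were. The replication genes in both were 78.9% of those detected at all, with 2 in pup 1 alone and 2 in pup 3 alone. For mitosis genes it was 60.0% of the 20 detected at all, with 4 in each pup alone and Aurka in neither. The difference between the sets was not tested, and the order turned in longer lists of genes that are not members: 36.7% for other replication genes and 42.9% for other mitosis genes. Counts above 0 in both libraries were held by 16 replication and 13 mitosis genes. The additions were Rpa2, with 1 count in pup 1, and Top2a, with 13 counts in pup 1.

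**Figure D1:**
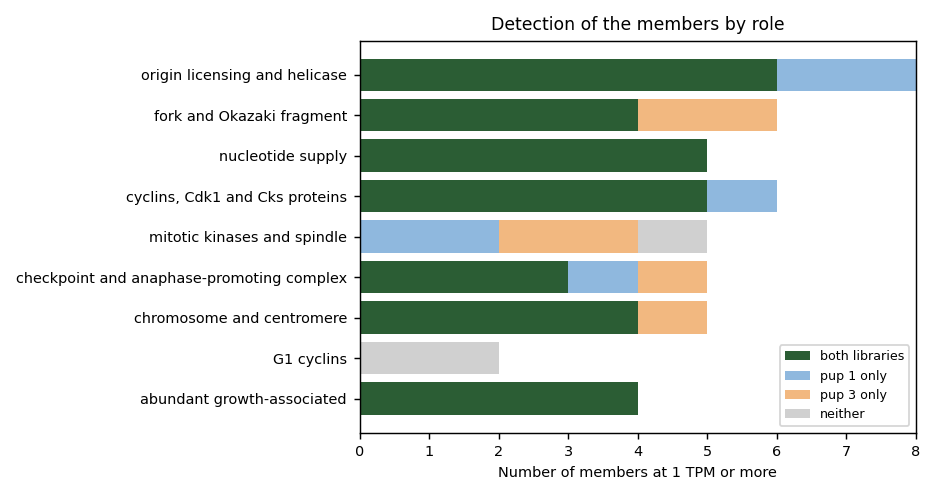
Members by role, with the number detected at 1 TPM or more in both libraries, in pup 1 alone, in pup 3 alone or in neither. All 5 nucleotide supply genes were detected in both libraries, and none of the 5 mitotic kinase and spindle genes was.

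Within the roles, nucleotide supply was complete, with 5 of 5 genes in both libraries. Origin licensing and helicase genes followed with 6 of 8, and fork and Okazaki fragment genes with 4 of 6. In mitosis, the cyclins with Cdk1 and the Cks proteins had 5 of 6 genes in both libraries, chromosome and centromere genes 4 of 5, and checkpoint and anaphase-promoting complex genes 3 of 5. Mitotic kinases and spindle genes had 0 of 5 in both. The 12 members found in a single library were above the 1 TPM threshold there. They stood between 3.42 and 88.1 TPM on 482 to 7759 expected counts, and 10 of the 12 had exactly 0 counts in the other library. Genes at such levels were often missed by the other library. At 10 to 30 TPM in 1 library, 48.9% and 51.3% of all genes were detected in the other, and at 30 to 100 TPM 63.0% and 63.3%.

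**Figure D2:**
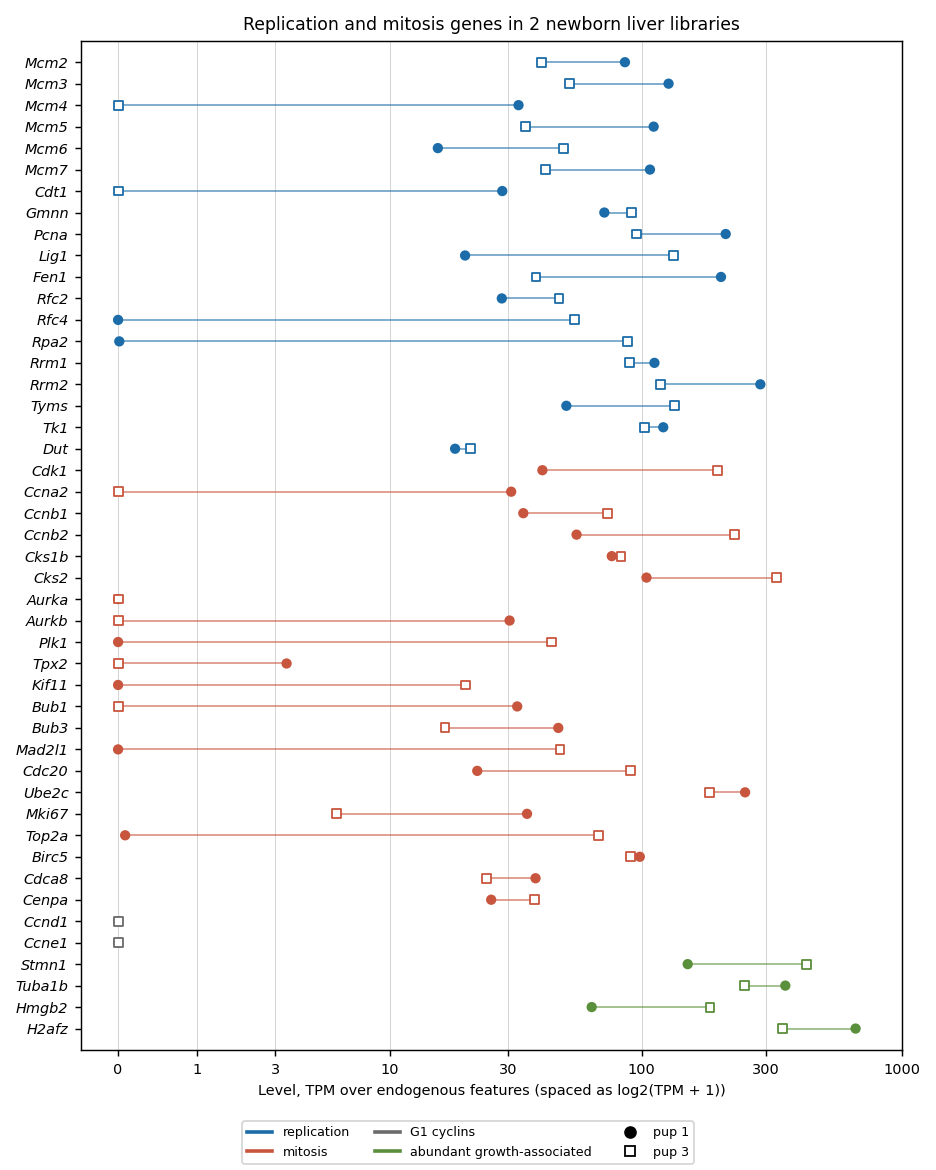
TPM of each member in pup 1 (filled circles) and pup 3 (open squares), on an axis spaced as log2(TPM + 1), coloured by set. Members without counts in a library lie at 0, among them Mcm4 and Cdt1 in pup 3 and Plk1 and Kif11 in pup 1; for Aurka, Ccnd1 and Ccne1 the 2 symbols coincide there.

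Members found in both libraries had similar levels in the 2 sets, with a median of mean TPM of 81.4 for replication genes and 68.3 for mitosis genes. Over all genes of each set the medians were 74.9 and 32.0 TPM, but there the 0 of a library that missed a gene enters the mean. Members at 100 to 1000 TPM in pup 1 were all detected in pup 3 (13 of 13, against 93.8% of all genes at that level), and members at that level in pup 3 were all detected in pup 1 (12 of 12, against 92.7%). At 30 to 100 TPM in pup 1, 12 of 16 members were detected in pup 3 (75.0%, against 63.0% of all genes): 3 of 4 replication genes and 8 of 11 mitosis genes. At that level in pup 3, 15 of 20 members were detected in pup 1 (75.0%, against 63.3%): 10 of 12 replication genes and 5 of 8 mitosis genes. At 10 to 30 TPM in pup 1, 6 of 7 members were detected in pup 3 (against 48.9% of all genes): 4 of 5 replication genes and 2 of 2 mitosis genes. At that level in pup 3, 3 of 4 members were detected in pup 1 (against 51.3%): 1 of 1 replication gene and 2 of 3 mitosis genes. At 30 to 100 TPM the shares of the 2 sets were thus 75.0% and 72.7% from pup 1 to pup 3, and 83.3% and 62.5% from pup 3 to pup 1, on few genes each. The longest listed transcript had a median of 2373 nt for members in both libraries and 2584 nt for members in 1 library. The order was not the same in the 2 groups: 2962 against 2001 nt for replication genes, and 2123 against 3193 nt for mitosis genes. Whether level or length had a part in detection was not tested.

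Promoters of the members are shown because the replication and mitosis genes differ in the letters found there. RefSeq sequence on GRCm38.p6 was at hand for 38 of the 46 members, as windows from 250 bases before to 50 bases after a transcript start, and was not used for Mcm4, Gmnn, Rfc2, Ccna2, Aurkb, Tpx2, Ccnd1 and Stmn1. Both strands were searched for TTTCCCGC, TTTGGCGC, TTTCGCGC and TTTGCCGC (E2F), TTTGAA (CHR) and CCAAT, and a gene with several windows was counted where any held a match. For the MCM genes Mcm5, Mcm6 and Mcm7, the 170 bases before the start follow, 5′ to 3′ on the gene's strand, with matches in capitals (CCAAT on the other strand reads ATTGG). Those of Mcm5 are chr8:75109339-75109508 on the plus strand, those of Mcm6 chr1:128359706-128359875 on the minus strand, and those of Mcm7, at 1 of its 2 RefSeq starts, chr5:138171884-138172053 on the minus strand.
Mcm5: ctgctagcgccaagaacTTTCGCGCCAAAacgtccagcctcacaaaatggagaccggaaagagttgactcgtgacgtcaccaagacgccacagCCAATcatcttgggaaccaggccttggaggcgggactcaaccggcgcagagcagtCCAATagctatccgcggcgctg
Mcm6: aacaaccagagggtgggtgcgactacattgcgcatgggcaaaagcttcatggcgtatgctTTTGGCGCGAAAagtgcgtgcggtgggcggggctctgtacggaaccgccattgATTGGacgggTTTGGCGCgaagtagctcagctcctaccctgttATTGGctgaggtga
Mcm7: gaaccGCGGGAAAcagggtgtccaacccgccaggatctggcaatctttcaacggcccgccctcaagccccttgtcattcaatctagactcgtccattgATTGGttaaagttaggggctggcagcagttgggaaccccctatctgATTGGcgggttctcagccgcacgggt
In Mcm5, TTTCGCGC began 153 bases before the start and overlapped GCGCCAAA, the reverse complement of TTTGGCGC, at 149. In Mcm6, an overlapping pair began at 110 and 106 and a further TTTGGCGC at 47. Mcm7 held GCGGGAAA, the reverse complement of TTTCCCGC, at 165.

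For mitosis, Cdk1, Cdc20, Ube2c and Top2a are shown in the same way. Their windows are chr10:69352913-69353082 (minus strand), chr4:118437344-118437513 (minus strand), chr2:164769759-164769928 (plus strand) and chr11:99024190-99024359 (minus strand).
Cdk1: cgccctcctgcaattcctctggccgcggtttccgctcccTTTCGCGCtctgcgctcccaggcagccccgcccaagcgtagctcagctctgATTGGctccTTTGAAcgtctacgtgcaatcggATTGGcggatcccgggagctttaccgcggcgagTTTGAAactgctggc
Cdc20: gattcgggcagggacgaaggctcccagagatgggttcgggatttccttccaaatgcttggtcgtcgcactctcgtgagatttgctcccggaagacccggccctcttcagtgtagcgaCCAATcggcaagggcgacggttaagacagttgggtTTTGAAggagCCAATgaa
Ube2c: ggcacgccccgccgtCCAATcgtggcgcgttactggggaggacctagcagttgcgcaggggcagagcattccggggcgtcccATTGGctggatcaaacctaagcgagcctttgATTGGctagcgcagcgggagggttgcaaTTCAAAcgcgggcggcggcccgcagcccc
Top2a: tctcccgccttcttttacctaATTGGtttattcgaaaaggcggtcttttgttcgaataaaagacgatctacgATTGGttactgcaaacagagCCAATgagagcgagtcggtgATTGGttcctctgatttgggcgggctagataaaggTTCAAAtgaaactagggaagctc
All 4 held the CHR letters, as TTTGAA or on the other strand as TTCAAA, close to the start: at 18 bases in Cdc20, 29 in Ube2c, 23 in Top2a, and at both 71 and 15 in Cdk1. Cdk1 also held TTTCGCGC at 131 and was the only mitosis gene with an E2F match.

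**Figure D3:**
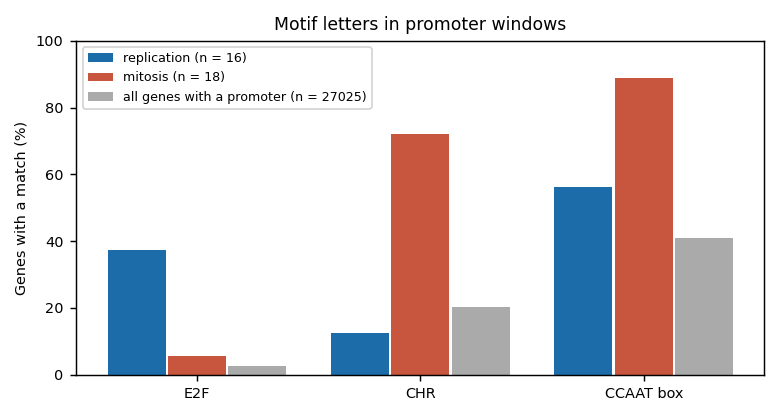
Percent of genes whose promoter window holds a match to the E2F, CHR or CCAAT letters, for 16 replication genes, 18 mitosis genes and all 27025 genes with a window. E2F matches are at 37.5% for replication genes and 5.56% for mitosis genes, and CHR matches at 12.5% and 72.2%.

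E2F letters were found in 6 of 16 replication genes (37.5%: Mcm3, Mcm5, Mcm6, Mcm7, Cdt1 and Lig1) and in 1 of 18 mitosis genes (5.56%), where 2.60% of 27025 genes with a window held them. CHR letters were found in 2 of 16 replication genes (12.5%: Mcm2 and Fen1) and in 13 of 18 mitosis genes (72.2%), against 20.2% of all genes. CCAAT was in 9 of 16 (56.2%) and 16 of 18 (88.9%), against 41.1%. A match is only a run of letters. Most members with CHR letters were detected in both livers, as were most members. These were Cdk1, Ccnb2, Cks1b, Bub3, Cdc20, Ube2c, Mki67, Cdca8, Cenpa, Mcm2, Fen1 and Hmgb2. Plk1, Kif11 and Top2a were detected in pup 3 alone, and Aurka in neither. Ccna2, Aurkb and Tpx2, detected in pup 1 alone, had no window.

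Origin licensing genes stood higher in pup 1, where their sum was 581 TPM, than in pup 3, where it was 312 TPM (446 ± 191 TPM). Mcm2 (chromosome 6, 88883474 to 88898780 in GRCm38), a subunit of the helicase that opens DNA at the fork, was at 86.2 TPM in pup 1 and 40.9 TPM in pup 3, on 11765 and 3828 expected counts (63.5 ± 32.0 TPM). Mcm3 was at 127 and 52.4 TPM, on 12084 and 3685 counts. Mcm5 (chromosome 8, 75109569 to 75128439) was at 111 and 35.2 TPM, on 15435 and 3350 counts. These 3 subunits were 2.11 to 3.16 times as high in pup 1 as in pup 3. Mcm7 (chromosome 5, 138164583 to 138172422) went the same way, at 108 and 42.2 TPM, on 9818 and 2991 counts. Mcm6 (chromosome 1, 128331590 to 128359664) went the other way, at 15.8 TPM in pup 1 and 49.6 TPM in pup 3, on 1756 and 4474 counts, a 3.15-fold difference. Mcm4 (chromosome 16, 15623897 to 15637400) was at 33.1 TPM in pup 1, on 4825 counts, and had no count in pup 3. By counting alone, that is at least 1104-fold. The 6 subunits assemble into a single ring, yet their levels spanned 15.8 to 127 TPM in pup 1 (median 96.9 TPM) and 0 to 52.4 TPM in pup 3 (median 41.5 TPM).

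Cdt1, which loads the helicase onto origins, was at 28.6 TPM in pup 1, on 2492 counts, and had no count in pup 3, at least a 570-fold difference. Gmnn encodes geminin, the protein that binds Cdt1 and blocks repeated loading in the same cycle. Gmnn was detected in both livers at similar levels, 71.7 TPM in pup 1 and 91.2 TPM in pup 3, on 2183 and 2257 counts (81.4 ± 13.8 TPM).

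At the fork, the summed level was nearly equal, 462 TPM in pup 1 and 459 TPM in pup 3, although its genes differed widely. Pcna (chromosome 2, 132249162 to 132253314), the sliding clamp, was at 211 and 95.7 TPM, on 12439 and 3881 counts (153 ± 81.4 TPM). Fen1, the nuclease that trims flaps between Okazaki fragments, was at 202 TPM in pup 1 and 38.8 TPM in pup 3, on 17373 and 2463 counts, which is 5.21-fold. Lig1, the ligase that joins the fragments after that step, had the opposite order: 20.3 TPM in pup 1 and 133 TPM in pup 3, on 716 and 7220 counts, which is 6.55-fold. Without correction for the shorter transcript assigned in pup 1 (944 nt on average, against 1993 nt in pup 3), Lig1 was at 13.1 and 208 CPM, which is 15.9-fold. These neighbouring steps of a single process thus gave the widest opposite differences among replication genes detected in both libraries.

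Rfc2, a subunit of the clamp loader, was at 28.4 and 47.7 TPM, on 1685 and 1940 counts. Its partner Rfc4 had no count in pup 1 and stood at 55.1 TPM in pup 3, on 1498 counts, at least 728-fold higher. Rpa2, a subunit of the protein that coats single-stranded DNA, had 1 count in pup 1 and 4181 counts, or 88.1 TPM, in pup 3. Its ratio, taken from counts and transcript length, was 6094 with a 95% exact counting interval of 1093 to 240737. Each of these 3 genes was higher in pup 3.

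Nucleotide supply genes, all detected in both livers, summed to 589 TPM in pup 1 and 466 TPM in pup 3 (527 ± 87.4 TPM). Rrm1, the large subunit of ribonucleotide reductase, was at 112 TPM in pup 1 and 89.8 TPM in pup 3, on 18235 and 10025 counts (101 ± 15.7 TPM). Rrm2 (chromosome 12, 24708241 to 24714146), its small subunit, had the highest mean level of the replication genes, at 287 and 118 TPM on 24973 and 7013 counts (202 ± 119 TPM). Tk1, the thymidine kinase of dividing cells, was at 121 and 102 TPM on 5618 and 3500 counts (112 ± 13.2 TPM). Rrm1 and Tk1 thus differed by 1.25-fold and 1.18-fold, less than Rrm2 with 2.42-fold. Dut, which removes dUTP, was the lowest of the role and nearly level, at 18.5 and 21.3 TPM on 746 and 580 counts (19.9 ± 1.96 TPM). Tyms, the thymidylate synthase, was at 51.0 and 134 TPM on 1687 and 3110 counts.

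Among mitosis genes, the cyclins, Cdk1 and the Cks proteins carried most of the difference between the livers: 344 TPM in pup 1 and 912 TPM in pup 3 (628 ± 402 TPM). Cdk1 (chromosome 10, 69335146 to 69352938), the kinase that drives entry into mitosis, was at 41.1 TPM in pup 1 and 196 TPM in pup 3, on 1613 and 3893 counts, which is 4.77-fold. Ccnb2 (chromosome 9, 70407692 to 70421547), a B-type cyclin and partner of Cdk1, was at 55.9 and 228 TPM, on 3365 and 9404 counts, which is 4.07-fold. Ccnb1, the other B-type cyclin listed, was at 34.6 and 73.8 TPM on 3451 and 3054 counts, which is 2.13-fold in TPM and 1.39-fold in CPM. Cks2, a small protein that binds Cdk1, was at 104 and 331 TPM on 2584 and 5630 counts, while the related Cks1b was level at 76.6 and 83.1 TPM on 2398 and 1786 counts (79.9 ± 4.62 TPM). As gene totals, Cdk1, Ccnb1, Ccnb2 and Cks2 were higher in pup 3 under every scaling tried. The order of Cks1b turned with TMM factors or DESeq2 size factors. Of the Ccnb1 TPM in pup 3, 63.1% lay in a form with a retained intron. The coding forms of Ccnb1 together stood lower there than in pup 1, where Ccnb1-201 held 100%. For Cdk1, forms with retained introns held 23.4% and 34.3% in pup 3, against 20.4% and 0% in pup 1. The coding forms of Cdk1 thus differed less than the 4.77-fold of the gene total. Ccna2, the A-type cyclin that serves both S phase and mitosis, stood apart: 31.0 TPM on 3422 counts in pup 1 and no count in pup 3, at least a 783-fold difference in the other direction.

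None of the 5 members grouped as mitotic kinases and spindle genes was detected in both libraries. Other genes of that kind were mixed. The kinase Nek2 (41.4 and 3.75 TPM) and Tacc3 (110 and 41.8 TPM) were detected in both. Melk and Kif23 were detected in pup 1 alone, Kif20a and Prc1 in pup 3 alone, and Ttk and Kif2c in neither. Aurkb, the kinase of the chromosomal passenger complex, was at 30.5 TPM on 2332 counts in pup 1 and at 0 in pup 3. Tpx2, a spindle assembly factor that activates Aurka, was at 3.42 TPM on 482 counts in pup 1 and at 0 in pup 3. Plk1, a kinase active from mitotic entry to exit, was at 0 in pup 1 and at 44.5 TPM on 2684 counts in pup 3. Kif11, the motor that pushes spindle poles apart, was at 0 in pup 1 and at 20.4 TPM on 2755 counts in pup 3. The lower bounds of these differences were 533-fold and 110-fold higher in pup 1 for Aurkb and Tpx2, and 1304-fold and 1338-fold higher in pup 3 for Plk1 and Kif11. Aurka, the spindle pole kinase, had no count in either library, which allows up to 0.0557 TPM in pup 1 and 0.0813 TPM in pup 3.

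Checkpoint and anaphase-promoting complex genes summed to 353 and 339 TPM (346 ± 10.1 TPM). Ube2c (chromosome 2, 164769898 to 164778822), the ubiquitin-conjugating enzyme of the complex, made up most of that sum, at 250 and 183 TPM on 9071 and 4557 counts (217 ± 47.4 TPM). Cdc20, its activator, was at 22.7 TPM in pup 1 and 90.6 TPM in pup 3, on 1574 and 4397 counts, which is 3.99-fold. The spindle checkpoint, which holds Cdc20 back until chromosomes are attached, was represented by 3 genes. Bub3 was at 47.4 and 16.8 TPM on 3873 and 944 counts. Its partner Bub1 was at 32.7 TPM on 4513 counts in pup 1 and at 0 in pup 3, at least 1032-fold. Mad2l1 was at 0 in pup 1 and at 48.2 TPM on 1754 counts in pup 3, at least 852-fold. So the Bub genes were higher in pup 1, and Mad2l1 and Cdc20 in pup 3.

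Mki67 and Top2a, which are widely used to mark dividing cells, went in opposite directions. Mki67 (chromosome 7, 135689784 to 135716361), which encodes the Ki-67 protein that coats mitotic chromosomes, was at 35.8 TPM in pup 1 and 5.88 TPM in pup 3, on 14899 and 1680 counts, which is 6.08-fold. Top2a (chromosome 11, 98992943 to 99024189), the topoisomerase that untangles sister chromatids, was at 0.0642 TPM in pup 1 and 67.9 TPM in pup 3, on 13 and 7759 counts. Both are long transcripts, with a longest form of 10075 nt for Mki67 and 5221 nt for Top2a. Read alone, either gene would order the livers differently from the other.

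Of the remaining chromosome genes, Birc5 and Cenpa were closer between livers as gene totals. Birc5 (survivin), of the chromosomal passenger complex, was at 98.4 and 90.9 TPM on 3504 and 2212 counts (94.6 ± 5.30 TPM). Cdca8 (borealin), of the same complex, was at 38.6 and 24.8 TPM on 2463 and 529 counts, a 1.56-fold difference that was 2.96-fold in CPM (44.9 and 15.2 CPM), as the average transcript length was 1626 nt in pup 1 and 845 nt in pup 3. Aurkb, the kinase they bind, had no count in pup 3 while both partners were detected there as gene totals. Of the Cdca8 TPM in pup 3, however, 76.8% lay in the noncoding Cdca8-203. The coding Cdca8-202 had 2463 counts in pup 1 and 168 in pup 3. Cenpa, the histone H3 variant of centromeres, was at 25.8 and 38.3 TPM on 1346 and 1207 counts (32.0 ± 8.83 TPM). Its coding form Cenpa-205 went the other way. It held 99.4% of Cenpa TPM in pup 1 and 23.9% in pup 3, on 1344 and 329 counts.

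The G1 cyclins Ccnd1 and Ccne1, which bring cells out of G1, had no count in either library. That allows up to 0.0358 and 0.0522 TPM of Ccnd1 and up to 0.0938 and 0.137 TPM of Ccne1, in pup 1 and pup 3. Other cyclins of these types were present. Ccnd3 was at 245 and 202 TPM, and Ccne2 at 91.8 and 40.5 TPM.

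All 4 growth-associated genes were detected in both livers, and their summed level hardly differed, at 1236 and 1214 TPM (1225 ± 16.2 TPM). H2afz (chromosome 3, 137864487 to 137866922), a histone H2A variant, had the highest mean level of all members, at 665 TPM in pup 1 and 349 TPM in pup 3, on 25754 and 9690 counts (507 ± 223 TPM). Tuba1b, an alpha-tubulin, was at 357 and 249 TPM on 24522 and 11721 counts (303 ± 76.6 TPM). Stmn1 (stathmin), which destabilises microtubules, was at 151 and 432 TPM on 6034 and 11459 counts. Hmgb2, a chromatin protein abundant in dividing cells, was at 64.0 and 184 TPM on 6929 and 13631 counts. H2afz and Tuba1b were higher in pup 1, Stmn1 and Hmgb2 in pup 3. Tuba1b, Hmgb2 and H2afz have close copies, and shared reads are divided by estimation, which adds uncertainty to their levels. The posterior SD of the counts of these 3 members was at most 0.674% of the count. Of the copies, Tuba1a was at 55.7 and 0.540 TPM and Tuba1c at 221 and 204 TPM. Hmgb1 was at 260 and 293 TPM, and H2afv at 55.0 and 174 TPM.

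Summed over each set, the balance of replication to mitosis differed between the livers. Replication genes summed to 1632 TPM in pup 1 and 1236 TPM in pup 3 (1434 ± 280 TPM), and mitosis genes to 929 and 1544 TPM (1237 ± 434 TPM). These sums count every listed form of a gene, coding or not. The ratio of replication to mitosis was 1.76 in pup 1 and 0.800 in pup 3 (1.28 ± 0.676), so the larger set was replication in pup 1 and mitosis in pup 3. All members together held 0.380% of TPM in pup 1 and 0.399% in pup 3 (3798 and 3993 TPM, 3896 ± 138 TPM), a much smaller spread than that of either set. In CPM, which weight long transcripts more, the ratio was 2.36 and 1.22, above 1 in both livers and again higher in pup 1. Without Rrm2 and Cks2, the highest gene of each set, it was 1.63 and 0.922.

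**Figure D4:**
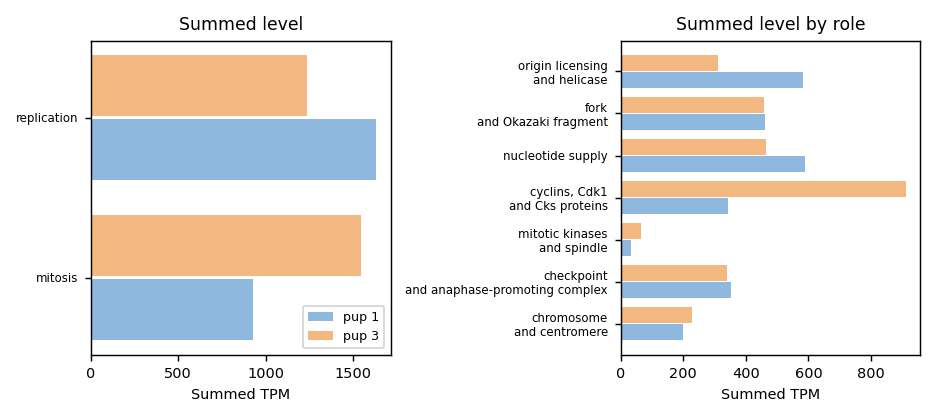
Summed TPM of the replication and mitosis genes (left) and of each of their roles (right) in pup 1 and pup 3, 1 bar per library. Replication genes are higher in pup 1 (1632 against 1236 TPM) and mitosis genes in pup 3 (1544 against 929 TPM), where the cyclins, Cdk1 and Cks proteins reach 912 TPM.

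Gene by gene, members leaned to neither liver. Of the 43 members whose expected counts averaged 10 or more, 22 were higher in pup 1 and 21 in pup 3, where 50.7% of all genes that passed were higher in pup 1. At 4-fold or more on the log2(TPM + 1) scale, 17 members were apart, against 50.9% of all genes. Of these, 8 were higher in pup 1 (background 26.1%) and 9 in pup 3 (background 24.8%), shares below the background. A gene seen in a single library passes the count filter through that library alone and has to differ, and 12 of the 17 were such genes. The median log2 ratio of pup 3 over pup 1 was -0.11 for members, -0.32 for replication genes and 0.33 for mitosis genes, against -0.04 for all genes. With edgeR's TMM factors all genes shifted by -0.26 on this scale, and with spike-in totals by 0.25. With TMM the medians were -0.58 for replication and 0.08 for mitosis genes, and with spike-ins -0.07 and 0.58. Such scaling shifts both sets alike, so it cannot change their order. The median of all members changed sign with spike-ins, to 0.13.

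Among the 31 members detected in both libraries, 16 were higher in pup 1 (background 46.8%), 12 were within 2-fold (background 57.1%) and 5 were at least 4-fold apart (background 17.7%). The 5 were Fen1 and Mki67, higher in pup 1, and Lig1, Cdk1 and Ccnb2, higher in pup 3. For replication genes in both libraries, 9 were higher in pup 1 and 6 in pup 3. For mitosis genes it was 5 and 7. With TMM factors these counts were 10 and 5 for replication and 6 and 6 for mitosis, since Dut and Cks1b changed order, and with spike-in totals they were 8 and 7, and 4 and 8, since Tk1 and Birc5 did. Across genes, which are not independent and share depth and library, levels on the log scale in pup 1 and pup 3 had a Pearson correlation of 0.46 and a Spearman correlation of 0.43 over these 31 members. Over the 3555 genes detected in both libraries the values were 0.76 and 0.72, across a far wider range of levels.

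**Figure D5:**
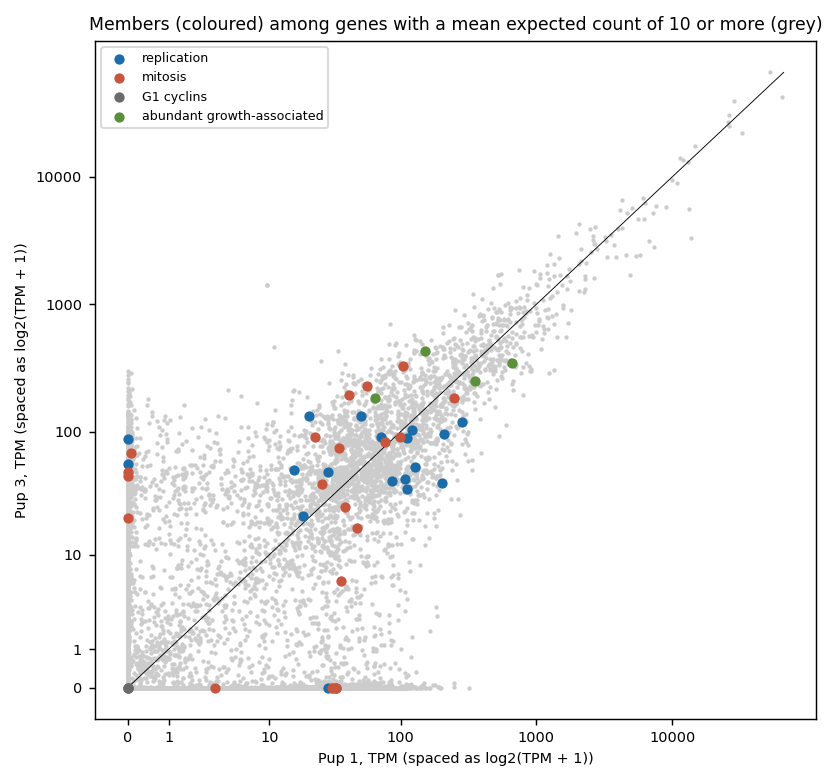
Level of each gene in pup 1 (x axis) against pup 3 (y axis), in TPM on axes spaced as log2(TPM + 1), with the line of equal level. Members are coloured by set over grey points for genes with a mean expected count of 10 or more. Members on the axes were counted in 1 library alone or nearly so, such as Mcm4, Cdt1, Ccna2 and Bub1 for pup 1 and Plk1, Rfc4, Rpa2 and Top2a for pup 3.

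Which transcript carried a gene's level also differed for some members. Of 31 members in both libraries, 22 had at least 2 listed transcripts, and the leading one was the same in 17 and different in 5. In Ccnb1, the coding transcript Ccnb1-201 held 100% of the gene's TPM in pup 1 and 21.4% in pup 3, where a transcript with a retained intron, Ccnb1-204, held 63.1% and Ccnb1-202 held 15.3%. In Cdca8, the coding Cdca8-202 held 100% and 15.5%, with 76.8% of pup 3 in the noncoding Cdca8-203. In Cenpa, the coding Cenpa-205 held 99.4% and 23.9%, with 75.9% of pup 3 in Cenpa-202, annotated as subject to nonsense-mediated decay. In all 3 of these mitosis genes, most of the TPM in pup 1 lay in a coding transcript and most of that in pup 3 in a form annotated as retained intron, processed transcript or nonsense-mediated decay.

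Among replication genes detected in both libraries, the 2 with a changed leading transcript, Fen1 and Lig1, were also the 2 furthest apart in level. Fen1-202 held 65.4% in pup 1 and 0% in pup 3, while Fen1-201 held 20.0% and 85.8% and Fen1-203 14.1% and 14.2%. In Lig1, a short form of 944 nt, Lig1-206, held 100% in pup 1 and 11.5% in pup 3. There, Lig1-212 held 35.1%, Lig1-201 28.5% and the noncoding Lig1-207 10.2%. In Cdk1, the coding Cdk1-202 led in both livers with 66.9% and 41.4%, and transcripts with retained introns followed: Cdk1-203 with 20.4% and 23.4%, and Cdk1-204 with 0% and 34.3%. Cdk1-207 held 10.9% in pup 1 alone.

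Other members with several transcripts kept their leading one. Tyms had nearly the same makeup in both livers, 52.2% of Tyms-205 (nonsense-mediated decay) in each and 44.2% and 43.4% of Tyms-202 (retained intron). Coding transcripts led in the rest: Mcm3-201 with 71.9% and 79.6%, Mcm6-201 with 94.0% and 76.7%, Mcm7-201 with 65.8% and 75.8%, Tk1-201 with 67.8% and 79.1%, Gmnn-202 with 76.7% and 100%, and H2afz-201 with 83.9% and 99.7%. Such percents are shares of TPM. They give short transcripts more weight than reads do, and rest on the authors' division of reads among overlapping forms.

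Related genes of the cycle that are not members were detected in both livers in shares near that of all genes (46.3%). Of 36 other replication genes, 11 were detected in both livers, 13 in pup 1 alone, 6 in pup 3 alone and 6 in neither, which is 36.7% of those detected at all. Their leading genes were Prim1, the small primase subunit, at 70.0 and 95.4 TPM, Gins1, of the helicase complex, at 40.1 and 94.5 TPM, and Gins4, of the same complex, at 88.7 and 43.8 TPM. Of 35 other mitosis genes, 12 were detected in both, 9 in pup 1 alone, 7 in pup 3 alone and 7 in neither (42.9%). They were led by Cdca3 at 210 and 71.9 TPM, Ube2s, an enzyme of the anaphase-promoting complex, at 101 and 114 TPM, and the condensin gene Smc4 at 107 and 97.4 TPM. Both lists summed higher in pup 1: 1091 against 816 TPM for replication and 1080 against 764 TPM for mitosis. The higher sum of the mitosis members in pup 3 was thus not shared by the other mitosis genes.

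Of 18 regulators of the G1 to S transition, 7 were detected in both livers, 3 in each pup alone and 5 in neither (53.8% of those detected at all). Ccnd3, Cdk4 (247 and 161 TPM), the kinase it activates, and E2f4 (139 and 105 TPM), an E2F factor of resting and early G1 cells, were the highest. Of 14 cell cycle inhibitors, 4 were detected in both, 4 in pup 1 alone, 2 in pup 3 alone and 4 in neither (40.0%), with sums of 140 and 388 TPM. All 4 inhibitors in both livers were higher in pup 3, the highest being Cdkn2d (32.0 and 154 TPM), Cdkn1a (37.7 and 73.9 TPM) and Btg2 (7.72 and 92.3 TPM). The inhibitors in pup 1 alone were Trp53 (32.0 TPM there), Cdkn2c (14.3 TPM), Btg1 (9.02 TPM) and Cdkn1c (3.35 TPM). Those in pup 3 alone were Gadd45a (49.9 TPM there) and Wee1 (9.46 TPM). Pup 3 thus had the higher sums of both the Cdk1 group and the inhibitors, though some genes of each, such as Ccna2 and Trp53, went the other way.

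Some features of the libraries moved with these differences. Erythroid and neutrophil precursor sums were higher in pup 3 and the hepatocyte sum in pup 1 (values above), and each of these lists held markers that went the other way. Erythroid Hba-a1 and Hbb-bs were higher and Alas2, Slc4a1 and Ermap lower in pup 3. Of the neutrophil markers, S100a8, S100a9 and Camp were higher and Ngp, Ltf, Mpo and Elane lower in pup 3, and of the hepatocyte markers Alb, Afp and Ttr were higher and Trf, Ahsg and Apoa1 lower. Of 5 stem and progenitor markers, 0 were detected in both livers, and their sum was 1.69 TPM in pup 1 and 65.1 TPM in pup 3. Cd34 and Gata2 had no count in either library. Kit was at 0.964 and 0.954 TPM, Myb at 0.728 and 30.02 TPM, and Meis1 at 0 and 34.1 TPM. Kit and Myb thus made up the sum in pup 1, and Myb and Meis1 most of it in pup 3. Macrophage markers (4 of 5 in both) summed to 551 and 595 TPM, megakaryocyte markers (3 of 4) to 677 and 1156 TPM, B lymphocyte markers (3 of 4) to 94.97 and 229 TPM, endothelial markers (3 of 4) to 197 and 85.7 TPM (Stab2 and Lyve1 higher in pup 1, Pecam1 and Cdh5 in pup 3), and stellate and mesenchymal markers (2 of 4) to 292 and 159 TPM. The part of these cell types in the members' differences was not tested. Pup 1 was sequenced more deeply, and with its counts thinned to the depth of pup 3 the same number of members, 31, was detected in both.

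Reads of neighbouring genes can enter a few values. Exons of 15 members overlap an exon of another gene, and the overlapping gene had counts for 6 of them. These were Cdc20 (with Elovl1), Cdca8 (9930104L06Rik), Fen1 (Tmem258), Mcm7 (Cops6), Rfc4 (Eif4a2) and Tk1 (Afmid), all on opposite strands. Cdca8 and Tk1 had such a neighbour with counts in pup 3 alone, 3887 for 9930104L06Rik and 7626 for Afmid. No source used here says whether counting used strand. Without strand, reads that lie in the shared part of such a pair cannot be told apart. The posterior SD of the counts of these 6 members was at most 0.171% of the count.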

How the data were processed

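Both livers gave 1 library each, in 1 group; the labels' protocols name mirVana extraction and a SmartSeq protocol. Per notes deposited with each library, values refer to mm10 with GENCODE M4 genes. No source used here names the aligner, the counting program or the use of strand. The authors deposited expected counts (reads estimated per feature), TPM over all features including spike-ins, a posterior mean TPM (treated as a score), and the percent of each gene's TPM held by each transcript. The deposited TPM values are rounded to 2 decimals.

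TPM was rescaled to 1000000 after removal of spike-ins. GENCODE M21 (GRCm38, the assembly of mm10) gave names and coordinates and matched 42462 of 43346 genes (98.0%); of 195 listed symbols, Sgol1 did not match. Members and lists were chosen with earlier results of these data known, and all members were described by role. For each further list the 3 leading genes were named. Ccne2, the further kinase and spindle genes, the inhibitors found in a single liver, the neighbours and the copies were chosen after their values were seen. Medians and counts of 4-fold differences used ratios of log2(TPM + 1), over genes whose expected counts averaged 10 or more. On that scale differences between low values come out too small. Folds of single genes are ratios of TPM without the added 1, or of CPM or counts where stated. The posterior SD of a member's count was at most 0.922% of the count. Arithmetic was tested on simulated data. Alternatives covered thresholds, units, pseudocounts, filters, thinning, single libraries, and scaling by spike-ins, by DESeq2 size factors or by TMM factors from edgeR, the last 2 on expected counts rounded to whole numbers. No count model was fitted. The values of 1 marker gene are not reported here. Tools were edgeR 4.0.16 and DESeq2 1.42.0 in R 4.3.3, and matplotlib 3.10.9, scipy 1.17.1, pandas 2.3.3 and numpy 2.4.6 in Python 3.11.15.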

Additional observations from a re-analysis of the deposited data

How the results depend on the processing

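Of 78 values recomputed under an alternative, 17 came from a single library or from a setting that could not move them, and say nothing of stability. Of the other 61, 58 moved by less than the limits used. These were 1 SD over the libraries, 1.5 times for a count and 0.58 for a log2 median. Among the 58, the median log2 ratio of members was 0.00 with no filter, which has no direction. Scaling by TMM, DESeq2 or spike-in factors shifts log2 ratios by -0.26, -0.26 or 0.25. It could thus change the sign of a median but not pass the limit. The SD is a wide limit for the ratio of the sets, at 0.676 on 1.28. The exceptions follow. The summed level of replication genes was 2260 in CPM, a unit without length correction, against 1434 TPM. With at least 100 expected counts required in both libraries, 5 members were at least 4-fold apart, against 17, since that filter removes by construction every gene missing from a library. The median log2 ratio of all members changed sign to 0.13 when scaled by spike-in totals, against -0.11; the cause was not tested. With either library alone, 37 members were detected (17 replication and 16 mitosis genes), and 37 to 39 were counted. The sums ranged from 1236 to 1632 TPM for replication and from 929 to 1544 TPM for mitosis, and their ratio from 0.800 to 1.76, on both sides of 1. In CPM the ratio was above 1 in both livers, at 2.36 in pup 1 and 1.22 in pup 3. Which set was larger in pup 3 thus depended on the unit, although this ratio counted among the 58. The number of members detected in both libraries was 31 at 0.1 TPM, at 5 TPM, with the posterior mean TPM and after thinning pup 1. Alternatives for the medians of replication and mitosis genes, and those using CPM or 1 TPM in both libraries for the median of all members and CPM for the 4-fold count, and all those for single genes were chosen after seeing the data. No paired analysis was possible because both libraries belong to 1 group. With 1 library per liver, the spread cannot be divided into animal and technical parts.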
